A study of Homo sapiens with 4 samples.

Results

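NKX2-1, FOXA1, FOXA2, GATA6, HNF4A, SOX2, SOX4 and SOX9 are transcription factors that pattern the foregut endoderm and the lung epithelium that grows out of it. Their transcripts were read from every probe that carries 1 of these 8 symbols in the array's annotation. The rule found 10 probes of 24526, for 7 genes of the 16922 named genes on the array, and no probe carries the symbol HNF4A. FOXA2 has 3 probes, NKX2-1 has 2, and FOXA1, GATA6, SOX2, SOX4 and SOX9 have 1 each. The genes lie at chr14:36516397-36520232 (NKX2-1), chr14:37589552-37595249 (FOXA1), chr20:22580998-22585490 (FOXA2), chr18:22169589-22202528 (GATA6), chr20:44355699-44434596 (HNF4A), chr3:181711925-181714436 (SOX2), chr6:21593751-21598619 (SOX4) and chr17:72121020-72126416 (SOX9) in build GRCh38.p14, on which the array probes themselves were not placed.

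In the embryo, the forkhead factors FOXA1 and FOXA2 open chromatin for other factors, and GATA6 acts beside them in endoderm. NKX2-1, also called TTF-1, marks the lung field, drives surfactant and secretoglobin genes and is a diagnostic marker of lung adenocarcinoma. HNF4A drives liver and gut genes, SOX2 marks the proximal airway and squamous lineage, SOX9 marks the distal tips of the branching lung, and SOX4 is a SOX factor of progenitor cells that many tumors express.

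The cells were A549, a human lung adenocarcinoma cell-line, transduced with lentiviruses and kept under puromycin. A549/vec carried the empty pLemiR plasmid and A549/146b the pLemiR plasmid with hsa-pre-miR-146b, placed behind the TurboRFP gene and the constitutive CMV promoter, so that both shared the vector, the fluorescent protein and the selection. Each cell-line was a selected population and not a single clone, and it was grown on 2 occasions, with 1 array of bead-bound probes for each culture. In such bulk RNA, a lower level in every cell and fewer cells with the transcript cannot be told apart. The pre-microRNA is the designed difference between the cell-lines, and its mature products are shown for that reason, with the seed, bases 2 to 8, in capitals (RefSeq, build GRCh38.p14, chromosome 10, plus strand).
hsa-miR-146b-5p: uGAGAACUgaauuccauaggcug
hsa-miR-146b-3p: gCCCUGUGgacucaguucuggu
The seeds of the 2 arms differ.

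The 4 arrays had the same scale after the authors' normalization, with median normalized signals of 82.6 to 82.8. A probe was taken as detected on an array at a detection p under 0.01, that is, when its signal stood above nearly all negative control beads of that array, and 43.1% of all probes were detected on at least 1 array. The lowest normalized signal so detected was 104 to 118 per array. Differences between the cell-lines were larger on occasion 1 than on occasion 2, with a median size of 0.19 against 0.10 on the log2 scale, and A549/vec replicate 1 stood apart, with a Pearson's r of 0.993 to 0.995 with the other arrays against 0.996 to 0.997 among the others.

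Of the 7 genes with a probe, SOX4, SOX9, FOXA1 and FOXA2 were detected on all 4 arrays, SOX2 on 3, and NKX2-1 and GATA6 on none. None of the 5 tested probes of these genes passed limma's test at an adjusted p under 0.05 (2 of 5 had an unadjusted p under 0.05), where 0.928% of all 10559 tested probes passed it, 0.436% as higher and 0.492% as lower in A549/146b, and 12.2% had an unadjusted p under 0.05. SOX4 and FOXA1 were the 2 with an unadjusted p under 0.05, and in both the A549/146b arrays lay above the A549/vec arrays. That order of the 4 arrays was found in 22% of all tested probes, and the opposite order, which FOXA2 had, also in 22%. The smallest called change on the array was 1.42-fold, and each of these 5 was smaller.

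**Figure D1:**
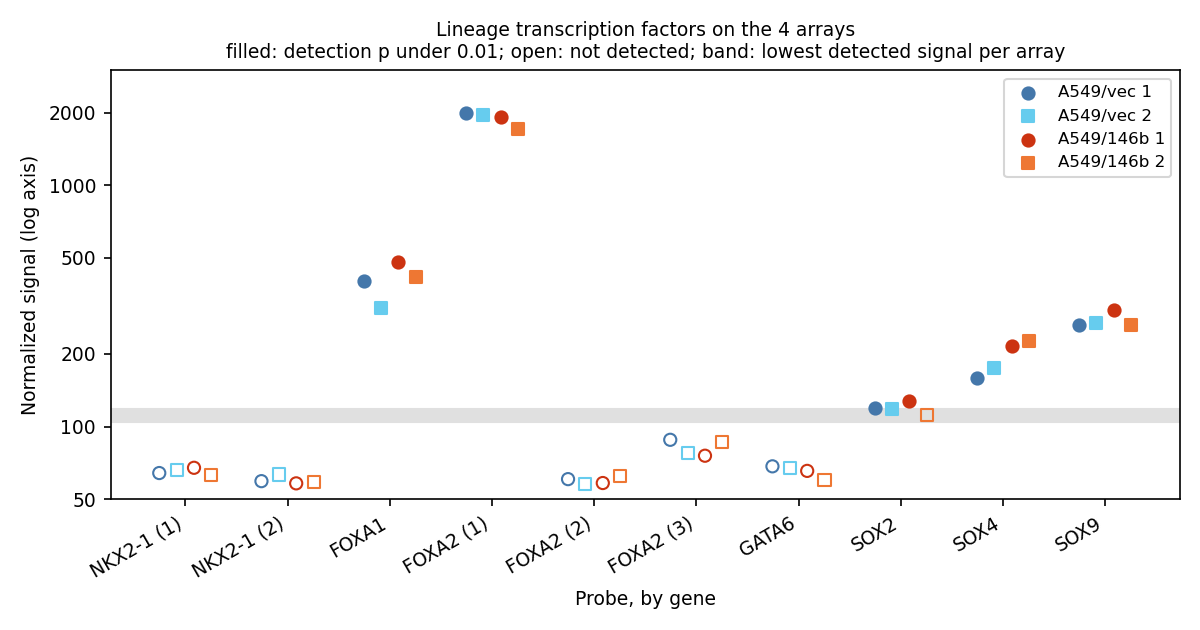
Normalized signal (log axis) of the 10 probes of the lineage transcription factors on the 4 arrays, 1 point per array. Filled points have a detection p under 0.01, open points do not, and the band runs from 104 to 118, the lowest detected signals of the arrays. Levels of different probes cannot be compared, since each binds with its own strength. The SOX4 and FOXA1 points of A549/146b lie above those of A549/vec, and both NKX2-1 probes and the GATA6 probe lie below the band on every array.

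SOX4 had the largest difference between the cell-lines. The 2 A549/vec cultures gave normalized signals of 158 (occasion 1) and 174 (occasion 2), and the A549/146b cultures 216 and 226. The 2 groups did not overlap, and the distance between them exceeded the distance between duplicates, which was 0.14 in A549/vec and 0.06 in A549/146b on the log2 scale. The mean of A549/vec was 166 ± 11.2 (SD, n = 2) and that of A549/146b 221 ± 6.94 (SD, n = 2), and the occasions gave log2 differences of 0.45 and 0.38. Standard errors from limma come nearly all from the pooled spread of the array's probes, and not from that of SOX4 itself. The log2 fold change was 0.41 (standard error 0.14, 95% interval 0.13 to 0.69, 1.33-fold), with an unadjusted p of 0.0039 and an adjusted p of 0.149 from limma, so that it was not called. A larger change was seen in 2.62% of the tested probes. Before normalization the SOX4 signals were 133 and 176 in A549/vec and 207 and 195 in A549/146b, in the same order of groups. In fits without 1 array and without the occasion as a block, SOX4 passed only without A549/vec replicate 2, with a log2 fold change of 0.48 (adjusted p = 0.0297 from limma, where the adjusted p over all alternatives ran from 0.0297 to 0.9999), a setting in which 868 probes of the array passed.

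FOXA1 came next. The 2 A549/vec cultures gave 402 and 311, and the A549/146b cultures 479 and 417. The groups were separated by little, since A549/vec replicate 1 lay just under A549/146b replicate 2. On the log2 scale the cell-lines were 0.25 apart on the first occasion and 0.42 on the other, while the A549/vec duplicates differed by 0.37. The log2 fold change was 0.34 (standard error 0.14, 95% interval 0.06 to 0.62, 1.26-fold), with an unadjusted p of 0.0182 and an adjusted p of 0.289 from limma. The A549/146b duplicates differed by 0.20, so that the mean difference between the cell-lines lay between those of the 2 duplicate pairs. In fits without the block, the log2 fold change was 0.52 when A549/vec replicate 1 was left out and 0.15 when A549/vec replicate 2 was.

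FOXA2, the closest relative of FOXA1, had 1 bright probe. It gave 1986.5 and 1965 in A549/vec and 1926 and 1719.8 in A549/146b. The A549/146b arrays were the lower ones on both occasions, with log2 differences of -0.04 and -0.19 and a log2 fold change of -0.12 (standard error 0.14, 95% interval -0.40 to 0.16, adjusted p = 0.801 from limma). The other 2 FOXA2 probes were not detected on any array. The second probe of transcript NM_021784 gave 75.7 to 88.1, with detection p-values of 0.0227 to 0.0453, just short of the limit. The probe of transcript NM_153675 gave 57.9 to 62.6, with detection p-values of 0.735 to 0.981. The 3 probes thus disagree on whether FOXA2 is detected, and the bright one alone carries its values.

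SOX9 did not separate the cell-lines. Its signal was 264 and 269 in A549/vec and 305 and 264 in A549/146b, so that A549/146b replicate 1 alone stood above the rest. The log2 differences were 0.21 and -0.03 on occasions 1 and 2, and the log2 fold change was 0.09 (standard error 0.14, 95% interval -0.19 to 0.37, adjusted p = 0.862 from limma). SOX2 lay at the detection limit in both cell-lines. It gave 119 and 118 in A549/vec and 127 and 111 in A549/146b, with detection p-values of 0.00647 on both A549/vec arrays, and 0.00324 and 0.0129 on the A549/146b arrays, the last of which missed the limit. Its log2 fold change was 0.0024 (standard error 0.14, 95% interval -0.28 to 0.28, adjusted p = 0.997 from limma), with 0.09 on occasion 1 and -0.09 on occasion 2.

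**Figure D2:**
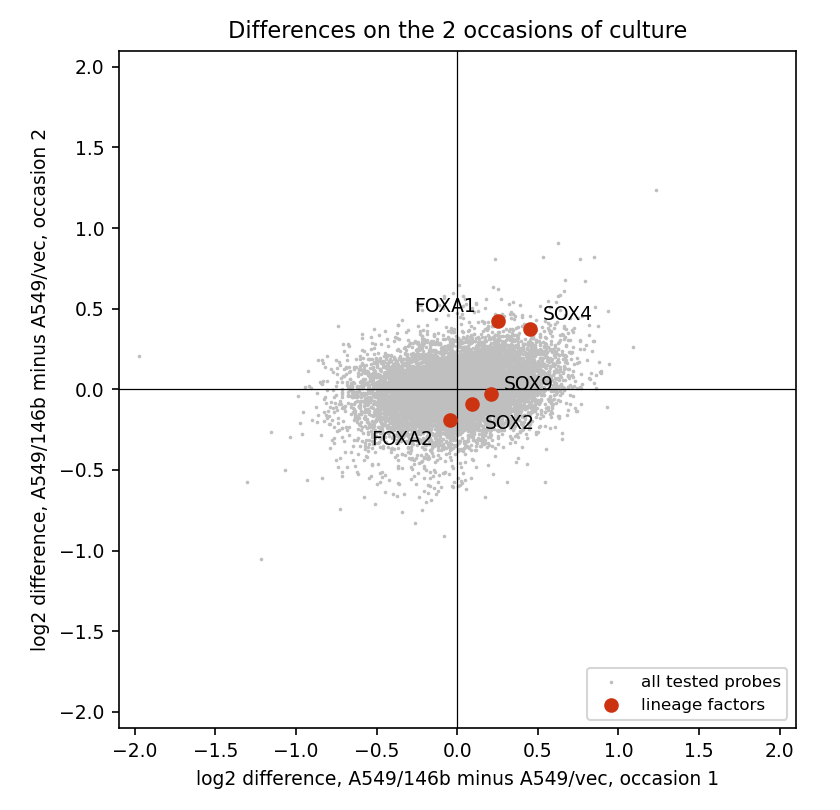
log2 difference of the normalized signals, A549/146b minus A549/vec, on occasion 1 (horizontal axis) and occasion 2 (vertical axis), for the 10559 tested probes (grey) and the 5 tested probes of the lineage factors (red). SOX4 (0.45 and 0.38) and FOXA1 (0.25 and 0.42) lie above 0 on both occasions, FOXA2 (-0.04 and -0.19) below 0 on both, and SOX9 and SOX2 change sign between them.

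The 3 of 5 that kept their sign over the occasions, SOX4, FOXA1 and FOXA2, compare with 58.4% of all tested probes. Among all probes with a gene name, those of PCDH9, a protocadherin, RPRD1A, a binder of RNA polymerase II, and SECISBP2L, a relative of a selenoprotein translation factor, had the pattern most like that of SOX4. Likeness was the Euclidean distance between the 4 log2 values, each centred on its mean. It was 0.026, 0.030 and 0.047, against a median of 0.46 over the tested probes. Since the 3 were picked for the smallest distance, they lie below that median by selection. Each of the 3 was detected on all 4 arrays, and their log2 fold changes were 0.44, 0.42 and 0.40.

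NKX2-1 and GATA6 gave signals in the range of the negative controls. The first NKX2-1 probe had 64.2 and 65.9 in A549/vec and 67.5 and 63.1 in A549/146b, with detection p-values of 0.230 to 0.696. The second had 59.4 and 63.3 in A549/vec and 58.1 and 58.7 in A549/146b, with detection p-values of 0.667 to 0.977. GATA6, on chromosome 18, had 68.4 and 67.5 in A549/vec and 65.5 and 60.2 in A549/146b, with detection p-values of 0.168 to 0.922. Neither gene could be compared between the cell-lines, since no array measured a level above background.

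The sequences before the start of SOX4, FOXA1 and NKX2-1, and of the surfactant gene SFTPA1 that NKX2-1 and the FOXA factors are known to drive, are shown to set detected genes beside undetected ones. Each is the 250 bases before the outermost annotated start, 5′ to 3′ on the gene's strand (RefSeq, build GRCh38.p14). Capitals mark matches, on either strand, to short forms of the sites these factors bind. The forkhead letters were TGTTTA and also the form TGTTTG, the SOX letters were ACAAAG and also the form ACAATG, the GATA letters were AGATAA, and the NKX2-1 letters were CTCAAG and also the form CAAGTG.
SOX4 (chr6:21593501-21593750, plus strand): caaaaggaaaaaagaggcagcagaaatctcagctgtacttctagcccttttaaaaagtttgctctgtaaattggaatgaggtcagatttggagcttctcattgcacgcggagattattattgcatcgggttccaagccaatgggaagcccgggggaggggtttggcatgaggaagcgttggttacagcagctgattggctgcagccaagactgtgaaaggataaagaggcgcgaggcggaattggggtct
FOXA1 (chr14:37595250-37595499, minus strand): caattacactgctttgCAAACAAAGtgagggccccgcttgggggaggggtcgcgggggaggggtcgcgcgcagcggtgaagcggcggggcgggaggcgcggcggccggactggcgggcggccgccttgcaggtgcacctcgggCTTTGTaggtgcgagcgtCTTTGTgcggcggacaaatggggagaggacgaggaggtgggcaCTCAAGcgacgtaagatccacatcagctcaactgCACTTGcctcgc
NKX2-1 (chr14:36520233-36520482, minus strand): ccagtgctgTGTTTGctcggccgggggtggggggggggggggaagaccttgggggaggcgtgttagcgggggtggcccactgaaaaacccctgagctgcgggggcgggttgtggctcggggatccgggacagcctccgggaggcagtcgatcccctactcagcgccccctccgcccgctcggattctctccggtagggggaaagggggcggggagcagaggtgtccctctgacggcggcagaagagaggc
SFTPA1 (chr10:79610689-79610938, plus strand): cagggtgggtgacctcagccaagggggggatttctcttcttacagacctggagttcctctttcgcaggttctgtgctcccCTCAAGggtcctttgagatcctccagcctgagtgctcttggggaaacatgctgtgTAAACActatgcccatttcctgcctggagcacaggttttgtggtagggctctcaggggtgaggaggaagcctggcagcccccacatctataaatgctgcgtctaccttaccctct
Windows of 250 bases before to 50 after a start hold a forkhead match in 24.5%, a SOX match in 24.5%, a GATA match in 10.3% and an NKX2-1 match in 21.7% of 35116 annotated starts. The SOX4 window holds none of them. FOXA1 has 1 forkhead match at position -234 that overlaps a SOX match at -231, 2 more SOX matches at -107 and -89, and NKX2-1 matches at -46 and -12. The printed NKX2-1 window has a forkhead match at -241, and the window of a second annotated NKX2-1 start, not printed, has a forkhead match at -130, a GATA match at -100 and NKX2-1 matches at -147 and 24. SFTPA1 has a forkhead match at -115 and an NKX2-1 match at -170. Such matches are descriptions of letters and not binding sites. Of the 8 genes, 6 have a window in the table (all but FOXA2 and SOX9), and their 8 windows hold 8 to 34 CpG dinucleotides with a median of 15.5, against 14 for all windows. Detected and undetected genes overlapped in this number, with 8 for SOX4, 20 for SOX2 and 34 for FOXA1, and 25 for GATA6 and 21 and 11 for the 2 windows of NKX2-1.

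The relatives of these factors were mostly not detected. Of 28 related FOXA, GATA, HNF4, NKX and SOX genes with a probe, 7 were detected (25%), against 5 of 7 for the lineage factors (71.4%) and 49.0% of all named genes on the array. FOXA3, another FOXA factor, gave 134 and 115 in A549/vec and 136 and 126 in A549/146b, with a log2 fold change of 0.08 (adjusted p = 0.883 from limma). SOX13 gave 300.3 and 233 in A549/vec and 264 and 245 in A549/146b, and the groups overlapped. SOX18 and SOX21 had log2 fold changes of 0.11 and 0.12, the smallest p of the group, with adjusted p of 0.817 and 0.800 from limma. GATA2, GATA3, GATA4, HNF4G, SOX12, SOX15 and SOX17 were not detected on any array, although GATA2 and SOX12 came as near to the limit as a detection p of 0.0129 on 1 array each. None of the 7 tested probes passed the test, none had an unadjusted p under 0.05, and their median log2 fold change was near 0 (-0.00029, with -0.0024 over all tested probes).

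**Figure D3:**
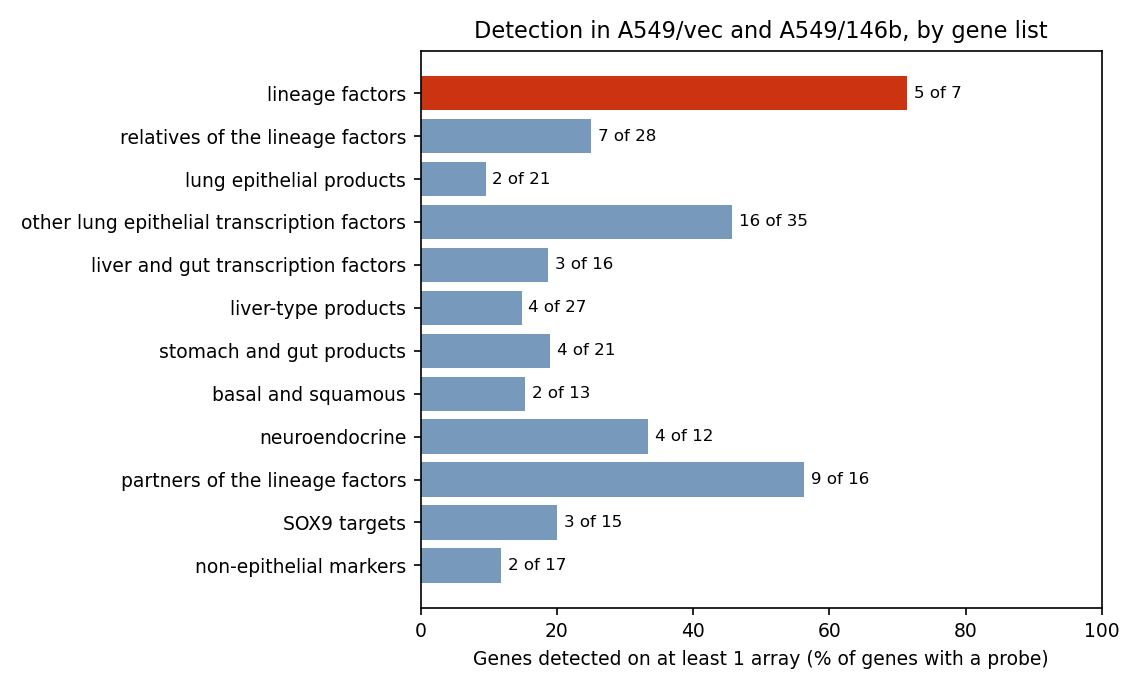
Share of the genes with a probe that were detected on at least 1 of the 4 arrays (horizontal axis, %), for the lineage factors (red) and 11 other gene lists (blue), with counts beside the bars. The lineage factors stand at 5 of 7 and the lung epithelial products at 2 of 21.

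Transcripts which mature lung epithelium is known for were nearly all undetected in these A549-derived cells, as was NKX2-1. Of 21 products of alveolar and airway cells, LPCAT1, which makes surfactant lipid, and ABCA3, which loads it into lamellar bodies, were the 2 detected. LPCAT1 gave 780.0 and 648 in A549/vec and 614 and 713 in A549/146b, with a log2 fold change of -0.10 (adjusted p = 0.835 from limma). ABCA3 gave 289 and 322 in A549/vec and 310.5 and 292 in A549/146b, with a log2 fold change of -0.02 (adjusted p = 0.982). The surfactant proteins SFTPB (2 probes), SFTPC and SFTPA1, the club cell secretoglobin SCGB1A1 and the protease napsin A (NAPSA) were detected on no array. Their signals ran up to 89.2, that of NAPSA in A549/vec replicate 1. At a limit of 0.05 NAPSA would count as detected on 3 arrays (detection p of 0.0227, 0.0227 and 0.0259). The lung claudin CLDN18 would count on all 4 with the brightest of its 4 probes (0.0129 to 0.0162). The surfactant protein SFTPD (0.0324 to 0.0453) and the brighter MUC1 probe (0.0129 to 0.0259) would also count on all 4. At that limit 60.5% of all probes count as detected on at least 1 array, against 43.1% at 0.01. SFTPB, SFTPC, SFTPA1 and SCGB1A1 had detection p-values of 0.146 or more on every array.

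Of other transcription factors of lung and airway epithelium, 16 of 35 genes (45.7%) were detected, near the 49.0% of all named genes, and none of their 19 tested probes passed the test (3 had an unadjusted p under 0.05). IRX3, an Iroquois homeobox factor, gave 738 and 894 in A549/vec and 583 and 728 in A549/146b, with a log2 fold change of -0.32 (adjusted p = 0.328 from limma). The C/EBP factor CEBPA had 269 and 246 in A549/vec and 196 and 226 in A549/146b, with -0.29 (adjusted p = 0.385). Both belong to the 5 of 19 probes whose A549/146b values were below all A549/vec values. That order was found in 22% of all tested probes, and 3 of 19 had the opposite order. IRX2, also among the 5, passed the detection limit in A549/vec alone, which favours a lower value in A549/146b. It is also 1 of the 3 with an unadjusted p under 0.05 (0.045 from limma). The list's median was -0.06, and 8 of its 19 probes lay above 0, where 49.5% of all tested probes did.

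On the liver and gut side, where HNF4A acts, transcription factors with a probe were detected for 3 of 16 genes. NR5A2, a nuclear receptor of liver, pancreas and gut, had the smallest p. Its brighter probe gave 491 and 532 in A549/vec and 742 and 631 in A549/146b, and its second detected probe gave 320.4 and 323 in A549/vec and 454 and 378 in A549/146b. Both A549/146b values were above both A549/vec values with each probe, and the log2 fold changes were 0.42 (adjusted p = 0.142 from limma) and 0.36 (adjusted p = 0.233). 1 more NR5A2 probe was not detected. HHEX, a homeobox factor of early liver and foregut, had 0.23 (adjusted p = 0.539). As with SOX4, the brighter NR5A2 probe passed only without A549/vec replicate 2 (0.48, adjusted p = 0.0321, where the adjusted p over the alternatives of its 2 probes ran from 0.0321 to 0.9999).

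Products typical of liver and of stomach and gut were detected in few cases, and 1 of each group rose. Of 27 liver-type genes 4 were detected, and CPS1, the first enzyme of the urea cycle, was higher in A549/146b, with 338 and 280.0 in A549/vec and 539 and 449 in A549/146b. Its log2 fold change was 0.68 (standard error 0.14, adjusted p = 0.00173 from limma), and the other 3 tested probes of the group did not pass. CPS1 lost its call in 5 of 11 alternatives, among them neqc (adjusted p = 0.0673) and the fit without A549/146b replicate 1 (0.54, adjusted p = 0.547). The other detected liver-type genes were FGA, with 1 of its probes, TM4SF4 and APOH. FGA and TM4SF4 were detected on all 4 arrays, with log2 fold changes of 0.27 and -0.04, and APOH on A549/vec replicate 2 alone. APOB, TTR and FGB, which HNF4A and the FOXA factors are known to drive in liver, were not detected. Of 21 stomach and gut genes 4 were detected, and ANXA10, an annexin of gastric epithelium, was higher in A549/146b, with 151 and 153 in A549/vec and 271 and 269 in A549/146b (log2 fold change 0.83, adjusted p = 1.7e-05 from limma). The other detected genes of this list, AGR2, CDH17 and CEACAM6, had log2 fold changes of -0.09, 0.04 and -0.04. TFF1, LGALS4 and CTSE, of gastric and intestinal mucosa, were not detected. However, 1 CTSE probe came near the limit on every array (detection p of 0.0129 to 0.0194), and TFF1 on both arrays of occasion 2 (0.0194). The medians were 0.18 for the 4 liver-type probes and 0.00024 for the 4 stomach and gut probes. CPS1 and ANXA10 were known as changed when the lists were written, so their counts are no independent evidence.

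**Figure D4:**
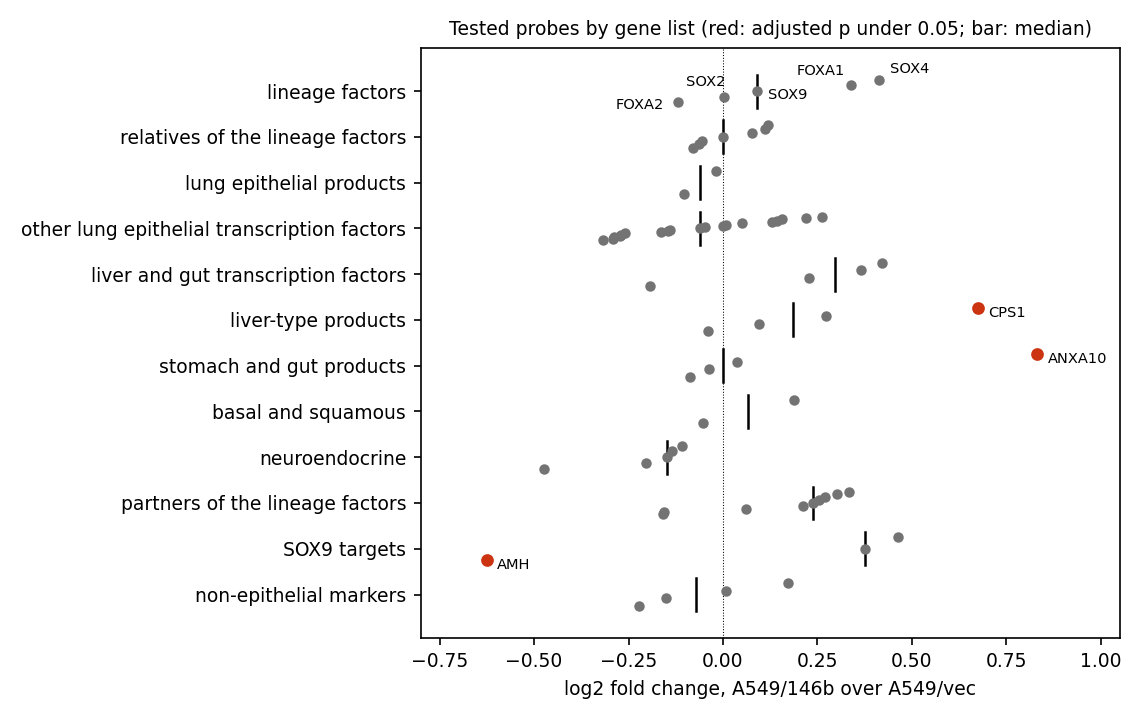
log2 fold change of every tested probe, A549/146b over A549/vec (horizontal axis), by gene list, with the median of each list as a bar and probes with an adjusted p under 0.05 in red. The lineage factors run from -0.12 to 0.41, and CPS1, ANXA10 and AMH are the 3 probes that passed, of which AMH was tested only because A549/vec detected it.

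Transcripts of proteins that work with the lineage factors were detected for 9 of 16 genes, and none of their 9 tested probes passed (2 had an unadjusted p under 0.05). TLE4, a Groucho co-repressor, gave 359.6 and 443 in A549/vec and 533 and 474 in A549/146b, with a log2 fold change of 0.33 (adjusted p = 0.304 from limma). YAP1, a co-activator of the Hippo pathway, had 0.30 (adjusted p = 0.364), nearly all of it on occasion 1 (0.59, with 0.01 on occasion 2). The median of this list was 0.24, but 0.31 on occasion 1 against 0.11 on occasion 2. Above 0 lay 7 of 9 probes, where 49.5% of all tested probes did. In 6 of the 9 both A549/146b arrays lay above both A549/vec arrays, and in 1 below. Each of these orders was found in 22% of all tested probes, and the list as a whole was not tested.

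Of 15 genes that SOX9 is known to drive in cartilage, testis or gut, 3 were detected. AMH, anti-Müllerian hormone, gave 159 and 159 in A549/vec and 96.7 and 109.6 in A549/146b, where it was not detected, so that its A549/146b level is a bound. Set against the dimmest detected probes of those arrays, AMH was lower by at least 1.39-fold in A549/146b, a bound that was not itself tested. Limma used the signals as they stood, undetected ones included, and gave a log2 fold change of -0.63 (adjusted p = 0.00664 from limma). AMH entered the test through its A549/vec arrays alone, which favours a lower value in A549/146b. The fit limited to probes that every array detected leaves AMH out. It did not pass without A549/146b replicate 1 (adjusted p = 0.592) or replicate 2 (adjusted p = 0.0665). This change, too, was known when the list was written. COL11A1, a fibrillar collagen, had 0.46 (adjusted p = 0.0806) from 1 probe, while its other 3 probes were not detected. MMP7, a matrix protease, had 0.38 (adjusted p = 0.211), with 0.73 on occasion 1 and 0.02 on occasion 2. The 12 others were not detected, the cartilage collagen COL2A1 among them.

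Markers of other epithelial lineages were few. Of 13 basal and squamous genes, the lineage in which SOX2 is prominent, S100A2 and TRIM29 were detected, with log2 fold changes of 0.19 and -0.05 (adjusted p = 0.639 and 0.928 from limma). Of 12 neuroendocrine genes 4 were detected, and their 5 tested probes lay below 0, where 49.5% of all tested probes lay above 0. For 2 of the 5, of DLL3 and CHGB, A549/vec alone passed the detection limit, which favours a value below 0, so the count is in part set by the filter. The neuronal enolase ENO2 gave 523 and 506 in A549/vec and 351 and 391 in A549/146b, with -0.47 (adjusted p = 0.0702 from limma). The Notch ligand DLL3 had -0.20 (adjusted p = 0.596 from limma) from its brighter probe, which changed sign between the occasions (-0.50 on occasion 1 and 0.09 on occasion 2). ENO2 passed only without A549/vec replicate 2 (-0.50, adjusted p = 0.0254, within a range over its alternatives of 0.0254 to 0.9999). Of 17 markers of fibroblasts, leukocytes and endothelial cells, CD14 and CD68 were detected, and none of their 4 tested probes had an unadjusted p under 0.05. Their smallest adjusted p were 0.559 for CD68 and 0.685 for CD14, and the defining markers PTPRC, COL1A1 and PECAM1 were not detected.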

How the data were processed

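Total RNA of A549/vec and A549/146b, 2 cultures each, had been hybridized to HumanRef-8 bead arrays. The deposited intensity values are the authors' GenomeStudio signals before normalization and their normalized signals. The latter were made in lumi 1.14 under R 2.11.1, where the background was corrected, the variance stabilized and the arrays aligned by a robust spline. The authors' deposited detection p-values compare each signal with the negative control beads of its array. The normalized signals are on a linear scale and not on a log scale as planned for, so log2 was taken.

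A gene symbol is annotated for 21834 probes and missing for 2692. All 10559 probes detected on 1 or more arrays (p under 0.01) were tested in limma 3.58.1 (R 4.3.3) with Benjamini-Hochberg adjustment and the occasion as a block, as the study's methods name a paired test. The replicate number in the labels was taken as the occasion that the study describes. Deviations from the group means correlated at r = -0.05 between same-numbered arrays, which does not itself show a pairing. Limma used 1025 prior and 1 residual degrees of freedom, and p-values rest on 2 cultures per cell-line, whose number limits the precision. With 2 arrays against 2 no permutation p can go below 0.333, so none was used.

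For a probe undetected on all arrays of a cell-line, a bound was computed from mean log2 values in which the lowest detected signal of an array stood in for any lower one. Alternatives were a fit with no block, neqc, quantile and median scaling of the signals before normalization (offset of 16), other detection filters, an intensity trend and each array left out. The fit was tested on simulated data. The genes and lists were chosen with earlier results of these data known. Named were all probes of the lineage factors, preset relatives and products, each called list member or otherwise the 2 genes with the smallest p, and the 3 genes nearest to the lineage factor with the largest change. CLDN18, CHGB, SFTPA1, COL11A1, MMP7, COL2A1, PTPRC, COL1A1 and PECAM1, where that rule did not name them, were chosen after their values were seen. The same holds for SFTPD, MUC1, IRX2, FGA, TM4SF4, APOH, AGR2, CDH17 and CEACAM6.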

Additional observations from a re-analysis of the deposited data

How the results depend on the processing

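The number of lineage factor probes detected on at least 1 array was 5 at a detection p under 0.01, 6 at 0.05, where the second FOXA2 probe entered, and 4 at 0.001, where SOX2 left. No lineage factor was called under any alternative except SOX4 without A549/vec replicate 2, so that the count without 1 array ran from 0 to 1. The fit without the replicate block called no lineage factor either (adjusted p of 0.24 for SOX4 and 0.362 for FOXA1 from limma). Several alternatives called few probes of the whole array: 12 without the block, 6 with median scaling, 21 with neqc and 0 over all probes. In these, the lack of a called lineage factor says little. Quantile normalization called 91 probes, the intensity trend 72 and the filter of detection on all 4 arrays 33. SOX4, FOXA1 and FOXA2 kept their direction under all 11 alternatives. SOX2 was -0.0047 with neqc, -0.00048 with quantile normalization and -0.0025 with median scaling, and ran from -0.093 to 0.097 without 1 array. SOX9 ran from -0.013 to 0.19 without 1 array. SOX2 had no value over the probes detected on all 4 arrays.

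In the other lists 3 probes were called, and 1 without the block, 1 with median scaling, 0 over all probes of the array (where 1984 of all probes had an unadjusted p under 0.05), and 1 to 12 without 1 array, the 12 without A549/vec replicate 2. Without the block the adjusted p was 0.0691 for both CPS1 and AMH. CPS1 also missed the threshold with median scaling (adjusted p = 0.332) and over all probes (adjusted p = 0.565). ANXA10 passed in all alternatives but that over all probes (adjusted p = 0.565 from limma), a setting in which 0 of the 24526 probes passed.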
